A study of Mus musculus with 9 samples.

Results

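The genes of sterol and fatty acid synthesis were measured by RNA sequencing in mouse embryos of the ICR strain that had been cultured to the 2-cell stage. The 35 genes were a list of enzymes and regulators, and all 35 were rows of the deposited table of 24454 genes. Each of 9 libraries was made from 3 pooled embryos, with 3 libraries per group. Embryos of the ZGW serum group had a high glucose load plus ZGW rat serum, a name that the labels do not spell out. Those of the high glucose group had the load without that serum, and for the control group no treatment is given. In the labels the 3 groups bear the titles drug, model and control. The glucose dose, the matings behind the embryos and any rat serum free of ZGW in the other groups are not stated. All 35 genes passed the filter on low counts, and are among 16964 genes tested.

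Cells make cholesterol from acetyl-CoA through the mevalonate pathway. Mevalonate is converted to farnesyl diphosphate, pairs of which are joined to squalene, and squalene is closed to lanosterol and trimmed to cholesterol. Fatty acids start from the same acetyl-CoA, which is carboxylated, polymerised to palmitate, and then elongated and desaturated. Transcription of both branches is driven by the sterol regulatory element binding proteins (SREBPs), encoded by Srebf1 and Srebf2. The escort protein Scap carries them from the endoplasmic reticulum to the Golgi when sterol is scarce, and the Insig proteins hold them back when sterol is plentiful. Cleaved SREBPs bind sterol regulatory elements, often beside CCAAT boxes bound by the factor NF-Y. Early mouse embryos hold a store of maternal mRNA and lipid, and much of that mRNA is lost around the 2-cell stage.

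The promoters of 5 genes whose values the results turn on are shown first, because they differ in the elements just described. Each is the 250 bases before the RefSeq start on GRCm38.p6, the assembly of the build mm10 named per the submitters' processing notes, written on the strand of the gene. Capitals mark CCAAT boxes (CCAAT on either strand, read as ATTGG on the reverse) and the core of the sterol regulatory element (TCACNCCAC on either strand). No 2 of these capital stretches overlap. Hmgcs1, at chr13:119690101-119690350 on the plus strand, had the highest mean level per length and the one promoter with a sterol element core. Insig1 is at chr5:28071162-28071411 on the plus strand. Ebp, at chrX:8193513-8193762 on the minus strand, and Sc5d, at chr9:42264301-42264550 on the minus strand, encode late sterol enzymes. Elovl6, at chr3:129532136-129532385 on the plus strand, held neither motif.
Hmgcs1: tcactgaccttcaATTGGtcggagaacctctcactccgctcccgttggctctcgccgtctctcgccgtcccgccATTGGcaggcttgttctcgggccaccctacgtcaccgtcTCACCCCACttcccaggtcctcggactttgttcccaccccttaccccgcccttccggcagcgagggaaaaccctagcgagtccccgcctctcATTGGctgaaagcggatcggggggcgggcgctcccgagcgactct
Insig1: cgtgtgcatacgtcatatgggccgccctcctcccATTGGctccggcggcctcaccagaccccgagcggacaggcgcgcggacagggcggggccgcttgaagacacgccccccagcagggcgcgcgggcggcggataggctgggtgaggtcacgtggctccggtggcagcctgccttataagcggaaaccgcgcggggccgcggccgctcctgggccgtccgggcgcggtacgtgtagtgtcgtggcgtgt
Ebp: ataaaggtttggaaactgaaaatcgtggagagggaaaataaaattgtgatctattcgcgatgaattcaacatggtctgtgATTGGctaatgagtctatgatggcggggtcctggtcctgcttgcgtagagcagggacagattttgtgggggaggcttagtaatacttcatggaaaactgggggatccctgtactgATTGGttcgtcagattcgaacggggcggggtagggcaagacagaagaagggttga
Sc5d: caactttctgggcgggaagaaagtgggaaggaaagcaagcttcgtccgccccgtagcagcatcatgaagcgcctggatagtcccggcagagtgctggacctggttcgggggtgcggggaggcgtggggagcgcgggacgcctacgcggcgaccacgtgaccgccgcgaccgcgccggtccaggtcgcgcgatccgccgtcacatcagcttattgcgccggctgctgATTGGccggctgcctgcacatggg
Elovl6: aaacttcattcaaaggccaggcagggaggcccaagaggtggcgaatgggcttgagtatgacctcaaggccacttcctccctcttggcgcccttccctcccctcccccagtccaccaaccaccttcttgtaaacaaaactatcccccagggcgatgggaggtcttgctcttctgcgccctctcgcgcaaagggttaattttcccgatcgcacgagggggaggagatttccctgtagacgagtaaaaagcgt

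A RefSeq promoter was found for 29 of the 35 genes, the others being Scd1, Scd2, Fdft1, Fdps, Sqle and Fads1. Of the 29, 23 (79.3%) held at least 1 CCAAT box in these 250 bases, against 37.5% of all 27025 genes with a promoter and 40.5% of the 12299 such genes that were also tested here. The exact sterol element core was in 1 of 29 (3.45%), against 1.22% of all genes. GGGCGG, a GC box bound by Sp1, was in 23 of 29 (79.3%), against 35.4% of all genes and 55.4% of those tested. These are matches of letters in a fixed window, and genes with several starts had more than 1 window.

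Library totals ran from 11934924 to 16916343 counts. The 9 chosen markers of 2-cell embryos were at or above 10 CPM in every library, as were 11 of 12 oocyte and maternal genes. Levels in CPM here take as the base the summed counts of the tested genes in a library, scaled with TMM factors. The summed 2-cell markers were at 3511 to 9175 CPM with ZGW serum, 10710 to 15020 CPM under high glucose and 7436 to 12650 CPM in control. The summed oocyte and maternal genes were at 98260 to 141500 CPM with ZGW serum, 44200 to 67900 CPM under high glucose and 73470 to 89700 CPM in control. All 12 cumulus and granulosa markers together reached 12.2 to 18.5 CPM with ZGW serum, 7.11 to 17.9 CPM under high glucose and 17.4 to 44.1 CPM in control, with Foxl2, Ptx3 and Inha under 1 CPM in every library. The 13 stroma and epithelium markers were at 42.9 to 97.1 CPM with ZGW serum, 99.4 to 136 CPM under high glucose and 123 to 238 CPM in control, and Cdh1 was the 1 of them at or above 10 CPM in every library. Markers of liver and fat cells, which make much lipid, summed to 12.7 to 21.4 CPM with ZGW serum, 6.81 to 21.3 CPM under high glucose and 11.8 to 29.7 CPM in control. The 8 blood markers summed to 319 to 529 CPM with ZGW serum, 86.7 to 309 CPM under high glucose and 250 to 369 CPM in control. The globin genes Hba-a1 and Hba-a2 were the 2 of them at or above 10 CPM in every library. Hbb-bs, Hbb-bt and Ptprc were under 1 CPM in every library, and 4 of the 8 passed the filter on low counts. The part of these marker differences in the results below was not tested. Control replicate 1 and ZGW serum replicate 3 stood apart on the first principal component (19.1% of variance). In bulk libraries such as these, fewer cells of a type and less RNA per cell cannot be told apart.

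Levels between genes were compared per length, as counts per kilobase of the longest GENCODE transcript relative to the sum of such values in the library (TPM). Hmgcs1, the cytosolic synthase that makes HMG-CoA, had the highest mean in each group, at 59.6 ± 17.9 TPM with ZGW serum, 103 ± 23.0 under high glucose and 79.7 ± 10.2 in control (SD, n = 3). In control its SD overlapped that of Insig1, which was the higher of the 2 in control replicate 1 (85.4 against 75.8 TPM). Insig1 and the squalene synthase Fdft1 came next and exchanged places: Insig1 was at 37.5 ± 5.39, 48.3 ± 3.35 and 77.5 ± 18.2 TPM in the same order of groups, and Fdft1 at 35.6 ± 5.30, 62.7 ± 4.34 and 67.6 ± 9.46. Their SDs overlapped with ZGW serum and in control but not under high glucose. Hmgcs1 stood above 92.4% of detected genes with ZGW serum, 94.5% under high glucose and 93.6% in control. At the low end, in control, were Lss at 0.759 TPM, Srebf2 at 0.604, Srebf1 at 0.380 and Fads2 at 0.258, whose SDs overlapped. Fasn, the multi-domain synthase that builds palmitate, was also low, at 0.425 ± 0.269 TPM with ZGW serum, 0.458 ± 0.227 under high glucose and 1.06 ± 0.735 in control.

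**Figure D1:**
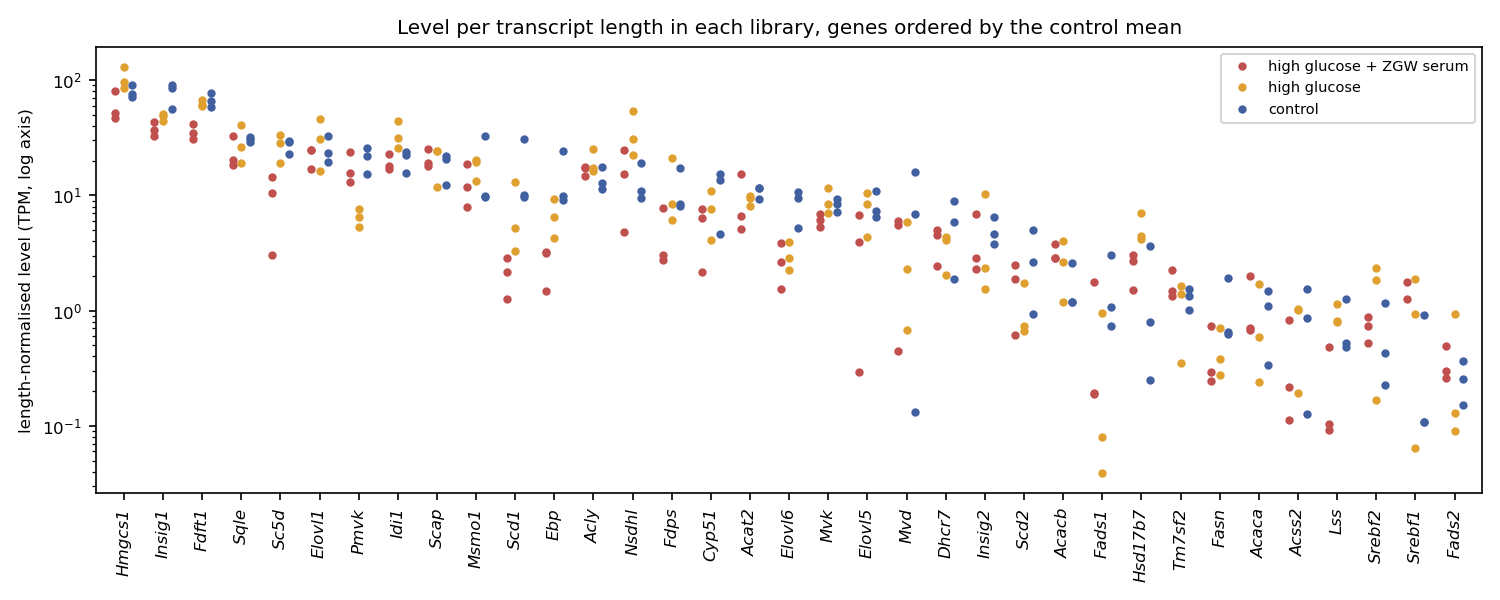
Length-normalised level (TPM, log axis) of each of the 35 genes in each library, with genes in the order of the control mean. Points are libraries, in red for ZGW serum, orange for high glucose and blue for control; Hmgcs1, Insig1 and Fdft1 lead and Srebf1 and Fads2 close the order, and the 1 library with no Srebf1 count has no point.

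Replicates spread widely for most of these genes. The median coefficient of variation of CPM over the 35 genes was 39.5% with ZGW serum, 39.2% under high glucose and 43.8% in control, against 47.8%, 44.9% and 49% over all genes tested in the same order of groups. The steadiest gene in a group was at 9.3% with ZGW serum, 5.38% under high glucose and 7.38% in control, and the most variable at 124%, 145% and 122%.

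The 35 genes together took the smallest share of the RNA with ZGW serum. Their summed level was 743, 630.3 and 782 CPM in the 3 libraries with ZGW serum, 1019, 989 and 954 CPM under high glucose and 1053, 1185 and 1122 CPM in control. No library of one group entered the range of another. Without the 3 genes of highest level, Hmgcs1, Fdft1 and Insig1, the sums were 481, 408 and 447 CPM with ZGW serum, 568, 611 and 569.5 CPM under high glucose and 587, 636 and 746 CPM in control, so that high glucose and control overlapped and ZGW serum stayed below both. Scaled by the library total alone, all 35 summed to 781, 701 and 737 CPM with ZGW serum, 964, 1030.0 and 928 CPM under high glucose and 1028, 1155 and 1097 CPM in control, where high glucose replicate 2 just passed control replicate 1. The sums weight the abundant genes and no test was made of them. In the same ZGW serum libraries the stroma and epithelium markers summed lower, and the oocyte and maternal genes summed higher, than in any other library. By the library total alone, the stroma and epithelium sum of ZGW serum replicate 2 (108) passed high glucose replicates 1 (98.3) and 3 (96.7). Taken gene by gene, 6 of the 12 oocyte and maternal genes were higher with ZGW serum than under high glucose (median log2 fold change 0.07). Against control 8 of the 12 were higher (median 0.28). Of the 8 stroma and epithelium markers tested, 6 were lower with ZGW serum than under high glucose (median -0.60). Against control 7 of them were lower (median -0.79).

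**Figure D2:**
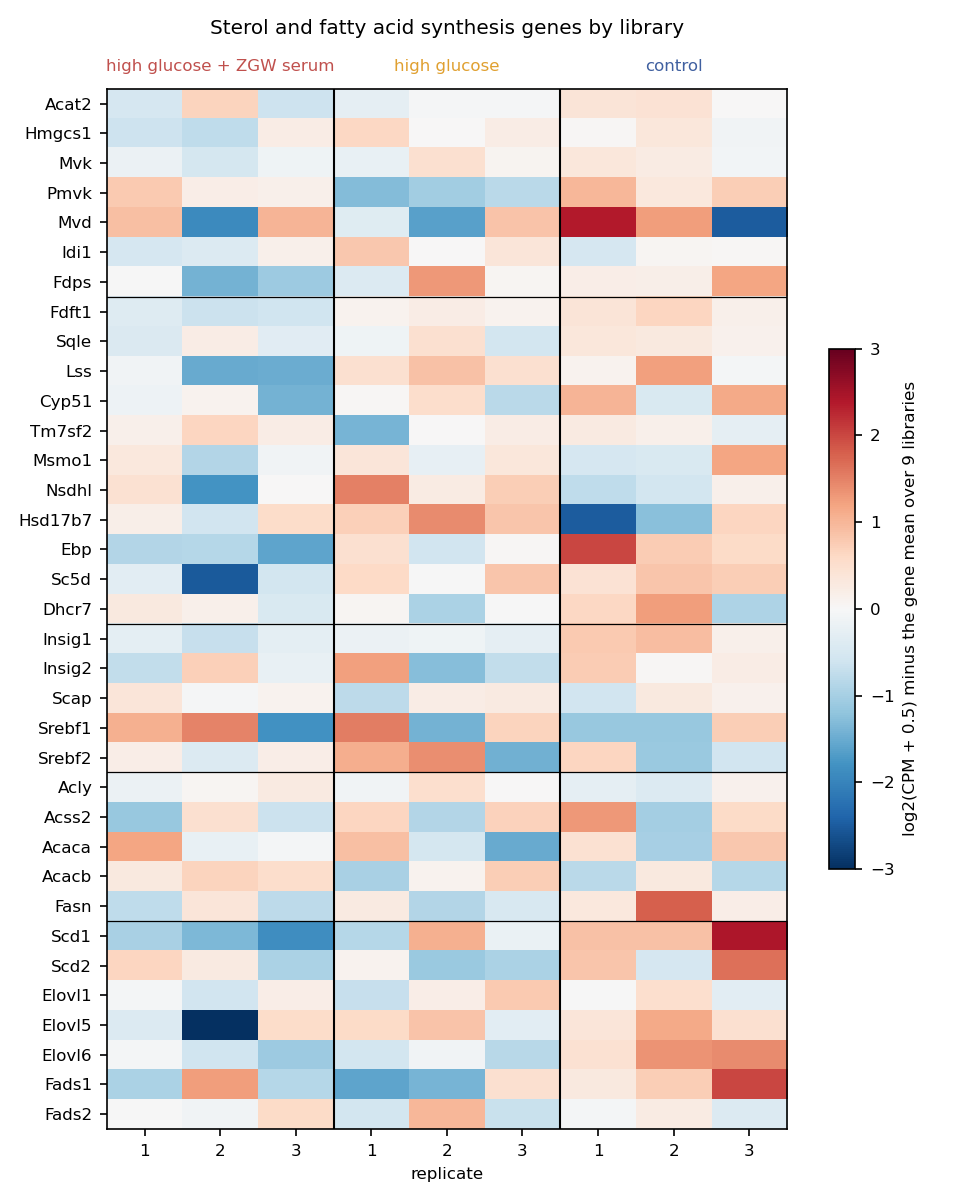
Each row is a gene and each column a library; colour is log2(CPM + 0.5) minus the gene's mean over the 9 libraries, red for above and blue for below, in blocks of mevalonate steps, squalene to cholesterol, SREBP regulators, fatty acid synthesis, and desaturation and elongation. Insig1, Ebp, Scd1 and Elovl6 are above their means in each control library, while rows such as Mvd and Srebf1 differ as much within a group as between groups.

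The first comparison, high glucose over control, addressed the glucose load. Pmvk, Elovl6, Insig1 and Scd1 were lower under high glucose at an unadjusted p below 0.05, by log2 fold changes of -1.85, -1.65, -0.85 and -1.39. In all, 24 of the 35 genes (68.6%) were lower, against 51% of all genes tested, and the median log2 fold change was -0.25, against -0.02 over all genes. The 4 genes below an unadjusted p of 0.05 (11.4%) were all lower, where 7.39% of all genes were below that p in either direction, 3.5% lower and 3.88% higher. The groups did not overlap for 7 genes, 5 lower and 2 higher, where 13.7% of all genes did not overlap, 6.91% lower and 6.84% higher. None of the 35 passed the quasi-likelihood test of edgeR after Benjamini-Hochberg adjustment over all genes, with adjusted p from 0.627 to 0.996, and 0% of all genes passed. limma-voom called 0 of the 35 as well, and DESeq2 called 2, Pmvk and Elovl6 (0.76% of all genes).

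The second comparison, ZGW serum over high glucose, addressed the serum in glucose-loaded embryos. Fdft1, Sc5d and Scd1 were lower with ZGW serum at an unadjusted p below 0.05, by log2 fold changes of -0.69, -1.38 and -1.65, and Pmvk was higher, by 1.54. In all, 22 of 35 (62.9%) were lower, against 49.9% of all genes, with a median log2 fold change of -0.23 against 0.00. That median was -0.45 without ZGW serum replicate 2, with 26 of 35 lower. The 4 genes below an unadjusted p of 0.05 made 11.4%, against 8.68% of all genes, 4.89% lower and 3.8% higher. The groups did not overlap for 8 genes, 7 lower and 1 higher with ZGW serum, where 17.3% of all genes did not overlap, 8.26% lower and 9.08% higher. edgeR's quasi-likelihood test called 0 of the 35 over all genes, with adjusted p from 0.486 to 1, and 0% of all genes. limma-voom called 0 and DESeq2 called 1, Pmvk (1.42% of all genes).

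The third comparison, ZGW serum over control, set both treatments together against the control. Scd1, Fdft1, Insig1, Ebp, Elovl6 and Sc5d were lower with ZGW serum at an unadjusted p below 0.05, by log2 fold changes from -0.96 for Fdft1 to -3.04 for Scd1. In all, 25 of 35 (71.4%) were lower, against 50% of all genes, and the median was -0.46 against 0.00. The 6 genes below an unadjusted p of 0.05 (17.1%) were all lower, where 9.86% of all genes were below that p in either direction, 5.65% lower and 4.21% higher. The groups did not overlap for 9 genes (25.7%), each lower with ZGW serum, where 16.3% of all genes did not overlap, 7.3% lower and 9.02% higher. By edgeR's quasi-likelihood test 0 of the 35 passed over all genes, with adjusted p from 0.338 to 0.964, as did 0% of all genes. limma-voom called 0 of the 35, and DESeq2 called 5, namely Fdft1, Ebp, Insig1, Scd1 and Elovl6 (2.05% of all genes). The 3 comparisons share libraries in pairs, so a gene that is extreme in 1 group enters 2 of them.

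**Figure D3:**
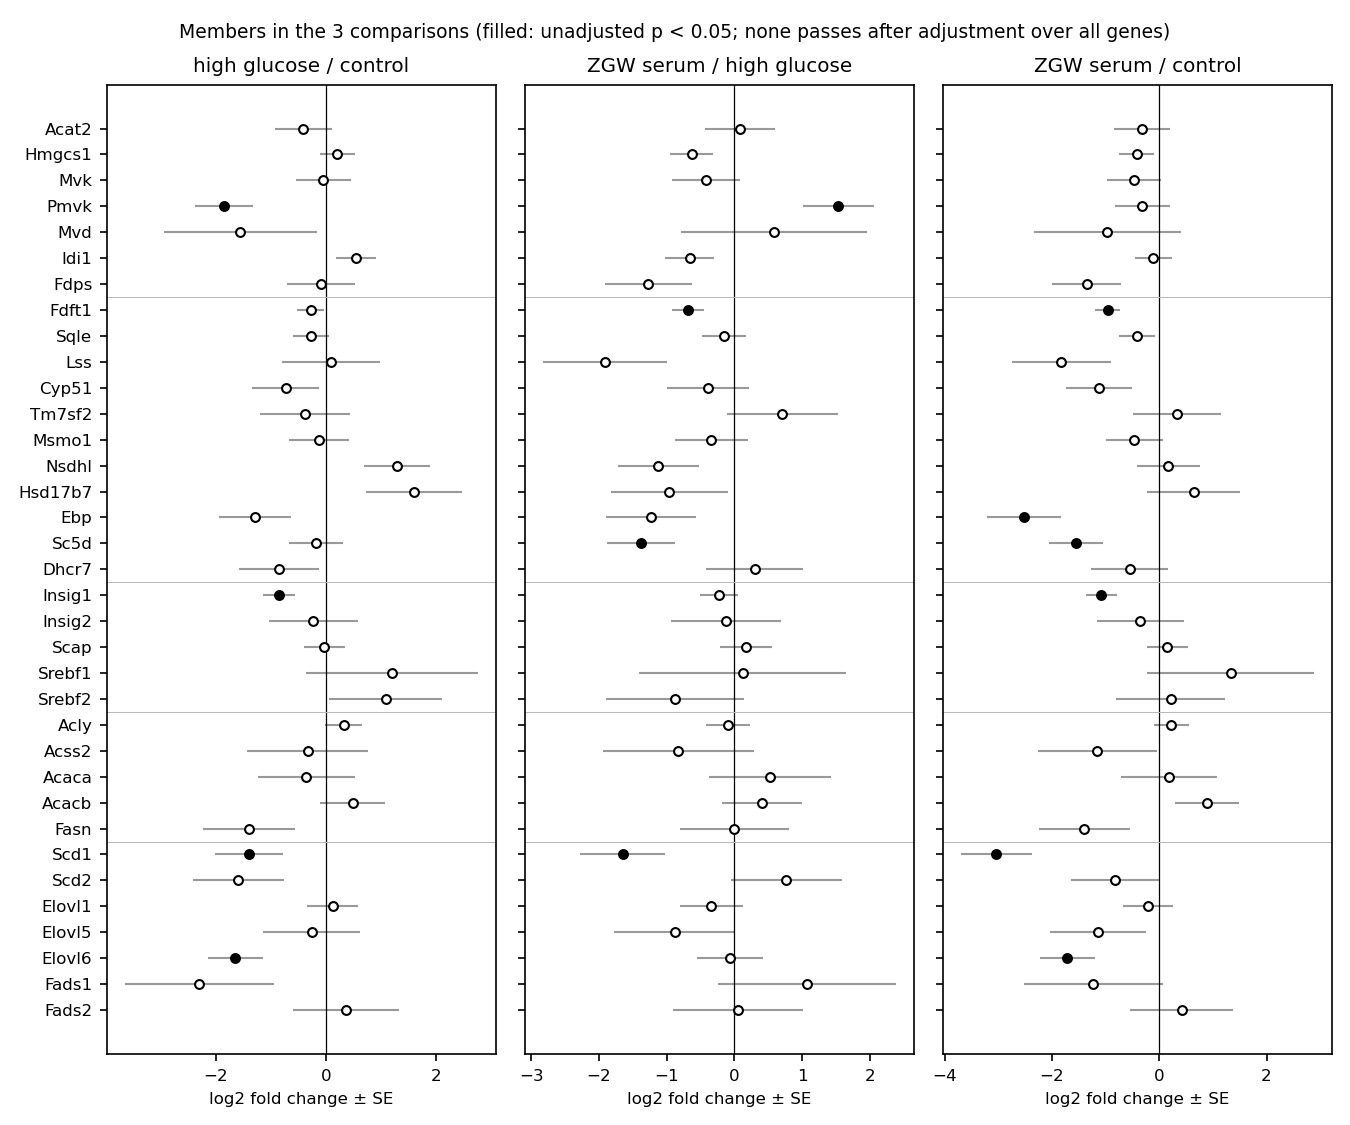
Log2 fold change ± SE from edgeR for the 35 genes in high glucose over control, ZGW serum over high glucose and ZGW serum over control, in the blocks of roles used above; filled points have an unadjusted p below 0.05. The filled points number 4, 4 and 6 in the 3 panels, and each lies below 0 except Pmvk at 1.54 in ZGW serum over high glucose.

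The 7 genes from acetyl-CoA to farnesyl diphosphate were mixed in direction in 2 of the 3 comparisons. With ZGW serum against high glucose 4 were lower and 3 higher (median -0.42), under high glucose against control 5 were lower and 2 higher (median -0.08), and with ZGW serum against control 7 of 7 were lower (median -0.42), none of them below an unadjusted p of 0.05. Their summed level was 189, 171 and 279 CPM with ZGW serum, 362, 273.5 and 293 CPM under high glucose and 280.1, 314 and 266 CPM in control. The high value of ZGW serum replicate 3 came from Hmgcs1.

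Pmvk, the phosphomevalonate kinase, had the most distinct pattern of the mevalonate genes. It had 16.6, 10.9 and 10.6 CPM with ZGW serum, 3.56, 4.31 and 5.22 CPM under high glucose and 19.4, 11.8 and 16.0 CPM in control. The 3 high glucose libraries were below all others, and ZGW serum and control overlapped. Between high glucose and control the log2 fold change was -1.85 ± 0.53 (SE; edgeR unadjusted p = 0.00518, adjusted p = 0.627), with means of 4.36 ± 0.833 and 15.8 ± 3.79 CPM (SD, n = 3). Between ZGW serum and high glucose it was 1.54 ± 0.53 (edgeR unadjusted p = 0.0141, adjusted p = 0.486). DESeq2 gave Pmvk an adjusted p of 0.00947 in the first of these comparisons and 0.0429 in the second. The gene lies at chr3:89454541-89469013 on the plus strand (GRCm38, GENCODE) and shares 0% of its transcript stretches of 50 bases with other genes.

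Hmgcs1 had 104, 95.5 and 189.8 CPM with ZGW serum, 251, 163 and 189 CPM under high glucose and 166, 205 and 151 CPM in control. ZGW serum replicates 1 and 2 were below all other libraries and replicate 3 was among the high glucose values. The log2 fold change was -0.63 ± 0.32 for ZGW serum over high glucose (edgeR adjusted p = 0.61) and -0.42 ± 0.32 for ZGW serum over control (edgeR adjusted p = 0.696). Without ZGW serum replicate 3 these were -0.98 and -0.78, and without ZGW serum replicate 2 the second was -0.27. Idi1, the isomerase that makes dimethylallyl diphosphate, had 29.8, 32.0 and 47.7 CPM with ZGW serum, 75.2, 42.9 and 54.8 CPM under high glucose and 30.1, 44.1 and 43.9 CPM in control. High glucose replicate 1 was the highest and the groups overlapped, with a log2 fold change of 0.55 ± 0.36 for high glucose over control, or 0.31 without that library.

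Fdps, the farnesyl diphosphate synthase, had 13.6, 4.73 and 6.13 CPM with ZGW serum, 10.1, 34.5 and 14.3 CPM under high glucose and 15.7, 15.4 and 31.3 CPM in control. Each ZGW serum library was below each control library, with a log2 fold change of -1.35 ± 0.64 (edgeR unadjusted p = 0.0583, adjusted p = 0.523). Acat2, the cytosolic thiolase of the first step, ran from 7.91 to 20.2 CPM with ZGW serum. It ran from 10.3 to 12.3 CPM under high glucose, just below the 12.6 to 17 CPM of control. In TPM these 2 groups overlapped, with high glucose replicate 2 at 9.89 and control replicate 3 at 9.26. The mevalonate kinase Mvk ran from 7.45 to 9.87 CPM with ZGW serum, below the 10.3 to 14.0 CPM of control. Under high glucose Mvk ran from 9.31 to 15.3 CPM. The decarboxylase Mvd was erratic, at 0.146 CPM in control replicate 3 and 18.5 CPM in control replicate 1. Transcript stretches of 50 bases shared with other genes make 4 of these 7 uncertain. The shares were 39.1% for Acat2, 26.2% for Fdps, 25.3% for Idi1 and 11.6% for Hmgcs1. Acat2 shared its stretches with Acat3 and, in the opposite orientation, with Tcp1.

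The 11 genes from squalene to cholesterol summed lowest with ZGW serum. Their sum was 285, 225 and 241 CPM with ZGW serum, 415, 395 and 377 CPM under high glucose and 424, 451 and 444 CPM in control. None of the 3 ranges overlapped. With ZGW serum 9 of 11 were lower than under high glucose (median -0.69), 5 of them without overlap, where 8.26% of all genes were lower without overlap. Against control 8 of 11 were lower with ZGW serum (median -0.55), 4 of them without overlap, where 7.3% of all genes were so. Under high glucose 8 of 11 were lower than in control, with a median of -0.26. The difference between these steps and the mevalonate steps was not tested.

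**Figure D4:**
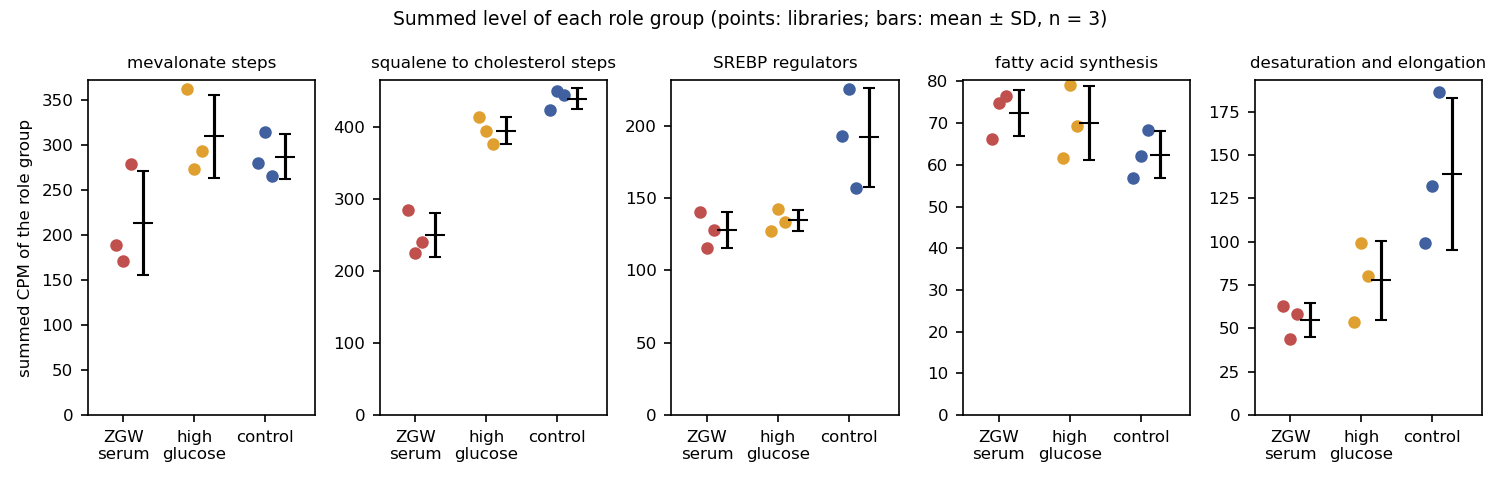
Summed CPM of the genes of each role, with a point for each library and the mean ± SD (n = 3) beside it, for ZGW serum, high glucose and control. The squalene to cholesterol steps are at 225 to 285 CPM with ZGW serum, 377 to 415 under high glucose and 424 to 451 in control, while fatty acid synthesis overlaps in all 3 groups.

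Fdft1, which joins farnesyl diphosphate into squalene and so commits it to sterols, had 89.4, 75.4 and 77.8 CPM with ZGW serum, 126, 138 and 126 CPM under high glucose and 155, 186 and 132 CPM in control. The ZGW serum libraries were below all others, and high glucose replicate 2 was above control replicate 3. The log2 fold change was -0.96 ± 0.24 for ZGW serum over control (edgeR unadjusted p = 0.00214, adjusted p = 0.368) and -0.69 ± 0.24 for ZGW serum over high glucose (edgeR unadjusted p = 0.0156, adjusted p = 0.498). DESeq2 gave an adjusted p of 0.00464 for the first. Fdft1 lies at chr14:63145150-63179578 on the minus strand, and 18.3% of its exon bases overlap exons of Ctsb on the other strand. It shares 26.5% of its stretches of 50 bases with other genes, among them Ctsb and, in the same orientation, Gm6781, so its counts are uncertain to that extent. The strand setting of the counting is not given in the sources used here. Ctsb, a lysosomal protease, was at 8.20 ± 3.43 CPM with ZGW serum, 21.1 ± 11.3 under high glucose and 22.1 ± 11.6 in control (SD, n = 3), and its part in the Fdft1 counts was not tested.

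Ebp, the isomerase that shifts a double bond within the sterol rings, had 3.24, 3.30 and 1.78 CPM with ZGW serum, 9.01, 4.08 and 6.53 CPM under high glucose and 26.9, 11.1 and 9.72 CPM in control. In CPM the 3 groups did not overlap, but in TPM high glucose replicate 1 (9.22) was just above control replicate 3 (9.19). Control replicate 1 was far above the other controls. For ZGW serum over control the log2 fold change was -2.52 ± 0.69 (edgeR unadjusted p = 0.00389, adjusted p = 0.385), and it was -1.91 without control replicate 1. High glucose over control gave -1.28 ± 0.66 (edgeR adjusted p = 0.713), which was -0.67 without that library.

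Sc5d, the desaturase that adds a late double bond to the sterol rings, had 40.6, 8.51 and 34.7 CPM with ZGW serum, 76.9, 50.3 and 90.5 CPM under high glucose and 69.0, 91.9 and 85.0 CPM in control. All 3 ZGW serum libraries were below the others, replicate 2 by the most. The log2 fold change was -1.38 ± 0.50 for ZGW serum over high glucose (edgeR unadjusted p = 0.0194, adjusted p = 0.512) and -1.56 ± 0.50 for ZGW serum over control (edgeR unadjusted p = 0.0107, adjusted p = 0.409). Without ZGW serum replicate 2 these were -0.94 and -1.15.

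Nsdhl and Hsd17b7 act one after the other in removing methyl groups from the sterol ring, and both had higher values under high glucose than in control. Nsdhl had 31.3, 6.12 and 22.6 CPM with ZGW serum, 65.2, 26.9 and 38.2 CPM under high glucose and 13.0, 15.3 and 25.0 CPM in control. Hsd17b7 had 7.26, 4.09 and 9.51 CPM with ZGW serum, 10.9, 17.9 and 11.8 CPM under high glucose and 0.730, 2.39 and 10.2 CPM in control. Every high glucose library was above every control library for both genes. Their log2 fold changes were 1.29 ± 0.60 for Nsdhl (edgeR unadjusted p = 0.0544, adjusted p = 0.687) and 1.60 ± 0.88 for Hsd17b7 (edgeR unadjusted p = 0.0963, adjusted p = 0.732).

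Lss, which closes squalene epoxide to lanosterol, was below the high glucose and control libraries in each ZGW serum library, at 1.97, 0.425 and 0.445 CPM with ZGW serum, 3.18, 4.39 and 3.18 CPM under high glucose and 2.33, 5.74 and 2.05 CPM in control. ZGW serum replicate 1 was only just below control replicate 3 (1.97 against 2.05 CPM, and 0.481 against 0.482 TPM). The log2 fold change of Lss was -1.91 ± 0.92 for ZGW serum over high glucose and -1.83 ± 0.92 for ZGW serum over control (edgeR adjusted p = 0.592 and 0.542). Sqle, the squalene epoxidase that is a slow step of the pathway, ranged from 53.2 to 84.8 CPM with ZGW serum, 48.9 to 102 CPM under high glucose and 79.3 to 91.3 CPM in control. For Cyp51, the lanosterol demethylase, the ranges were 5.78 to 17.4 CPM, 9.14 to 23.7 CPM and 11.8 to 36.7 CPM in the same order of groups. Msmo1, Tm7sf2 and Dhcr7 overlapped in every comparison, with log2 fold changes between -0.85 and 0.71.

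Among the regulators Insig1 stood out. Insig1 is a known target of the SREBPs as well as their anchor. It had 68.3, 51.2 and 67.8 CPM with ZGW serum, 74.3, 76.4 and 68.8 CPM under high glucose and 146, 158 and 92.7 CPM in control. The control libraries were above all 6 glucose-loaded libraries, and the ZGW serum and high glucose libraries lay between 51.2 and 76.4 CPM, those with ZGW serum the lower by a narrow margin. For high glucose over control the log2 fold change was -0.85 ± 0.29 (edgeR unadjusted p = 0.0124, adjusted p = 0.627). For ZGW serum over control it was -1.08 ± 0.29 (edgeR unadjusted p = 0.00312, adjusted p = 0.384; DESeq2 adjusted p = 0.0171). ZGW serum over high glucose gave -0.23 ± 0.28 (edgeR adjusted p = 0.874).

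The other regulators overlapped between all groups. Scap ran from 47.3 to 62.4 CPM with ZGW serum, 27.9 to 58.5 CPM under high glucose and 32.7 to 59.8 CPM in control. Insig2, the second anchor, had 3.63 to 10.7 CPM with ZGW serum, 2.31 to 15.6 CPM under high glucose and 6.56 to 11.1 CPM in control. Both SREBP genes were at low counts. Srebf2, the main driver of the sterol branch, had 2.60, 1.54 and 2.58 CPM with ZGW serum, 5.22, 6.62 and 0.489 CPM under high glucose and 3.72, 0.746 and 1.32 CPM in control. Srebf1, the main driver of the fatty acid branch, had 3.16, 4.42 and 0 CPM with ZGW serum, 4.54, 0.154 and 2.28 CPM under high glucose and 0.292, 0.298 and 2.41 CPM in control. The count of 0 in ZGW serum replicate 3 allows up to 0.267 CPM (3 counts), for counting error only. Log2 fold changes ran from -0.87 to 1.09 for Srebf2 and from 0.12 to 1.33 for Srebf1, with standard errors of 1.02 to 1.56. Single libraries moved these widely: with each left out in turn, Srebf1 for ZGW serum over control ran from 0.63 (without ZGW serum replicate 2) to 3.03 (without control replicate 3). Srebf2 for high glucose over control ran from 0.55 (without high glucose replicate 2) to 1.99 (without control replicate 1), and for ZGW serum over high glucose from -1.40 (without high glucose replicate 3) to -0.37 (without high glucose replicate 2).

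**Figure D5:**
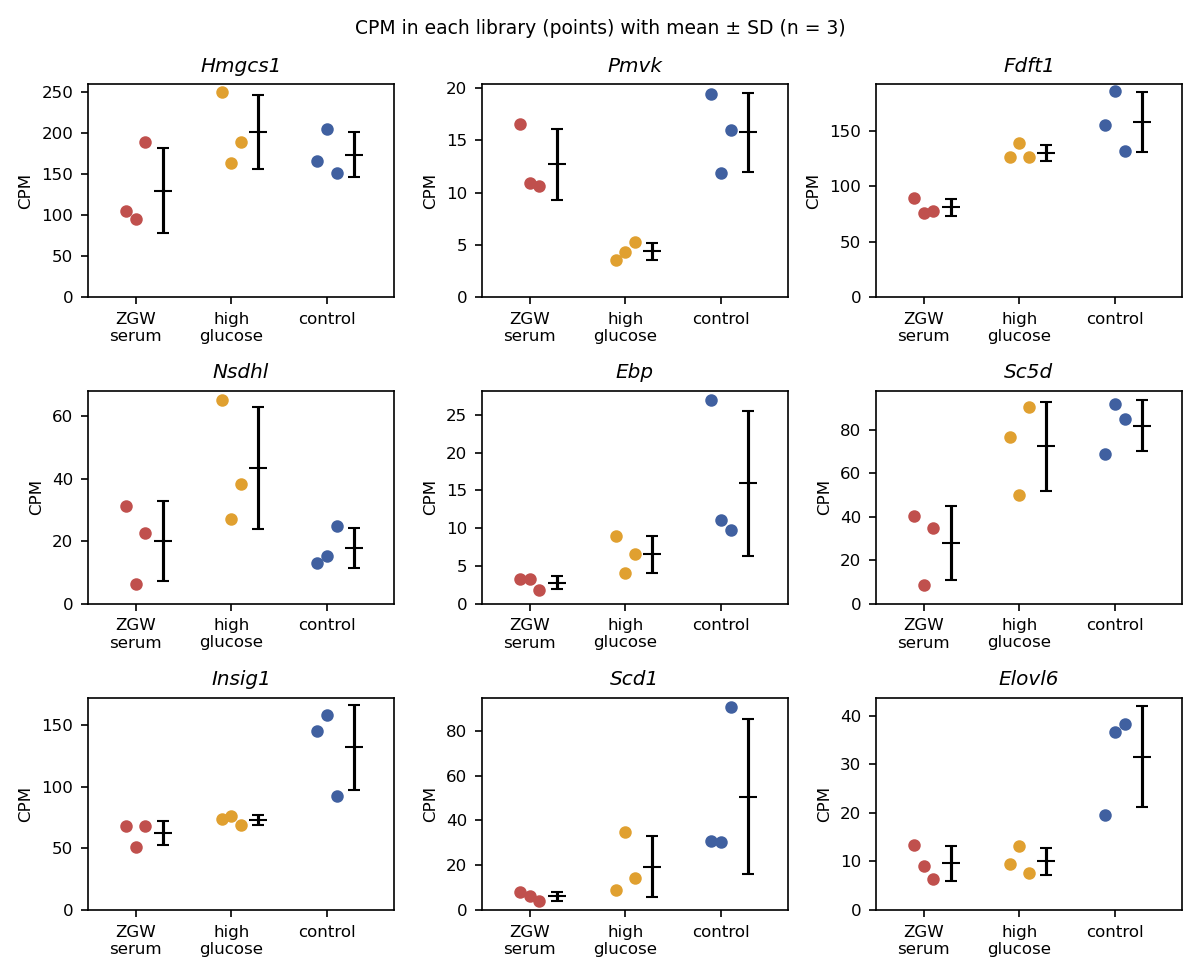
CPM in each library (points) with the mean ± SD (n = 3) for 9 of the genes described, each panel with ZGW serum, high glucose and control from left to right. Pmvk is lowest under high glucose, at 3.56 to 5.22 CPM, while Fdft1, Ebp, Sc5d and Scd1 are lowest with ZGW serum, and Insig1 and Elovl6 are highest in control.

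Fatty acid synthesis from acetyl-CoA showed no common direction. Of its 5 genes, 2 were lower and 3 higher with ZGW serum than under high glucose (median 0.00), and the same numbers held against control (median 0.18). Under high glucose 3 were lower and 2 higher than in control (median -0.32). Their sum was 66.1, 74.7 and 76.6 CPM with ZGW serum, 61.6, 79.2 and 69.3 CPM under high glucose and 56.9, 62.2 and 68.3 CPM in control. Acly, the citrate lyase that supplies cytosolic acetyl-CoA, gave most of these counts. Acly had 38.4, 45.5 and 52.5 CPM with ZGW serum, 40.6, 61.4 and 43.6 CPM under high glucose and 36.1, 32.7 and 47.6 CPM in control, with overlap in each comparison.

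The acetyl-CoA carboxylases make malonyl-CoA. Acacb, the form on the mitochondrial surface that restrains fatty acid oxidation, had 14.6, 19.2 and 17.3 CPM with ZGW serum, 5.83, 12.8 and 20.1 CPM under high glucose and 6.57, 14.6 and 6.36 CPM in control. Its log2 fold change was 0.89 ± 0.60 for ZGW serum over control (edgeR adjusted p = 0.653), or 1.40 without control replicate 2. Acaca, the cytosolic form, ran from 3.94 to 11.2 CPM with ZGW serum, 1.30 to 9.16 CPM under high glucose and 2.09 to 8.62 CPM in control, with 30.4% of its stretches shared with other genes, among them Gm5182. Fasn had 1.74, 4.31 and 1.69 CPM with ZGW serum, 4.01, 1.54 and 2.20 CPM under high glucose and 4.16, 12.4 and 3.80 CPM in control. Control replicate 2 set its control mean, and the log2 fold change of high glucose over control was -1.39 ± 0.84 in full and -0.62 without that library. Acss2, which makes acetyl-CoA from acetate, had 0.237, 1.75 and 0.533 CPM with ZGW serum, 2.04, 0.385 and 2.12 CPM under high glucose and 3.50, 0.298 and 1.90 CPM in control, with overlap throughout.

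Desaturases and elongases, which set the length and unsaturation of fatty acyl chains, summed lower in both glucose-loaded groups. The sum was 62.9, 43.8 and 58.1 CPM with ZGW serum, 53.6, 98.9 and 80.4 CPM under high glucose and 99.4, 132 and 186 CPM in control. The control libraries were above the rest, but by the library total alone high glucose replicate 2 (103) passed control replicate 1 (97.0). Of the 7 genes, 5 were lower under high glucose than in control (median -1.39), 6 were lower with ZGW serum than in control (median -1.14) and 4 were lower with ZGW serum than under high glucose (median -0.07).

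Scd1, the stearoyl-CoA desaturase that makes oleate, had the lowest p of the 35 genes for ZGW serum over control. It had 8.13, 6.12 and 4.18 CPM with ZGW serum, 8.85, 34.8 and 14.3 CPM under high glucose and 30.6, 30.5 and 90.6 CPM in control. Every ZGW serum library was below every other library, but ZGW serum replicate 1 was so by a narrow margin (8.13 against 8.85 CPM in high glucose replicate 1). High glucose and control overlapped through high glucose replicate 2. The log2 fold change for ZGW serum over control was -3.04 ± 0.66 (edgeR unadjusted p = 0.000834, adjusted p = 0.338), and it stayed between -3.30 and -2.35 when any 1 library was left out. DESeq2 gave an adjusted p of 0.000361. For ZGW serum over high glucose it was -1.65 ± 0.63 (edgeR unadjusted p = 0.0247, adjusted p = 0.533), and -0.92 without high glucose replicate 2. For high glucose over control it was -1.39 ± 0.62 (edgeR unadjusted p = 0.048, adjusted p = 0.672), and -0.70 without control replicate 3. Scd1 lies at chr19:44394455-44407879 on the minus strand and shares 4.56% of its stretches with other Scd genes.

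Elovl6, the elongase that takes palmitate to stearate, split the libraries between control and the rest. It had 13.4, 9.15 and 6.31 CPM with ZGW serum, 9.46, 13.1 and 7.67 CPM under high glucose and 19.6, 36.8 and 38.4 CPM in control. All 6 glucose-loaded libraries were below all 3 controls. The log2 fold change was -1.65 ± 0.50 for high glucose over control (edgeR unadjusted p = 0.00762, adjusted p = 0.627; DESeq2 adjusted p = 0.0488) and -1.71 ± 0.51 for ZGW serum over control (edgeR unadjusted p = 0.00613, adjusted p = 0.402; DESeq2 adjusted p = 0.0165). Between ZGW serum and high glucose it was -0.07 ± 0.49.

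Scd2, the desaturase form best known from brain, had 7.97, 6.01 and 2.31 CPM with ZGW serum, 5.30, 2.00 and 2.28 CPM under high glucose and 9.05, 3.28 and 16.5 CPM in control, without the order seen in Scd1. Elovl5, an elongase of polyunsaturated chains, had 6.39, 0.479 and 12.9 CPM with ZGW serum, 13.2, 16.2 and 6.93 CPM under high glucose and 11.3, 19.7 and 12.3 CPM in control, with ZGW serum replicate 2 far below the others. Elovl1, which serves very long chains, ran from 16.5 to 47.2 CPM over all libraries with log2 fold changes between -0.34 and 0.13. The front-end desaturases Fads1 and Fads2, which act in making arachidonate, stayed at or below 6.43 and 1.62 CPM.

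Genes around these pathways were read from lists chosen beside the 35. Of 23 other enzymes and regulators tested, 16 were lower with ZGW serum than under high glucose (median -0.51), 17 lower with ZGW serum than in control (median -0.32) and 13 lower under high glucose than in control (median -0.07). In the same order 0, 1 and 1 of the 23 were below an unadjusted p of 0.05, shares of 0%, 4.35% and 4.35%, against 8.68%, 9.86% and 7.39% of all genes. Of 17 genes of sterol uptake, transport, storage and efflux, 9 were lower with ZGW serum than under high glucose (median -0.02, mean 0.12), 10 lower with ZGW serum than in control (median -0.06) and 12 lower under high glucose than in control (median -0.25). Npc2, which moves cholesterol out of lysosomes, was at 55.1 ± 7.16 CPM with ZGW serum and 95.8 ± 12.8 CPM under high glucose (SD, n = 3; edgeR log2 fold change -0.80 ± 0.28, adjusted p = 0.499). Soat1, which esterifies cholesterol for storage, was at 7.86 ± 4.38 CPM with ZGW serum and 27.9 ± 20.5 CPM in control (SD, n = 3; edgeR log2 fold change -1.82 ± 0.66, adjusted p = 0.439). The 14 genes of the isoprenoid branches split 7 and 7 between lower and higher in ZGW serum over control. Ggps1, which extends farnesyl to geranylgeranyl diphosphate, was at 23.0 ± 19.4 CPM with ZGW serum and 60.0 ± 8.99 CPM in control (SD, n = 3). Its edgeR adjusted p was 0.466.

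Lists of genes that burn or store fatty acids were read in the same way. Of 24 genes of fatty acid activation and oxidation, 14 were higher under high glucose than in control (median 0.15) and 14 higher with ZGW serum than in control (median 0.61), while ZGW serum over high glucose had 11 higher and 13 lower. Hadha, of the mitochondrial trifunctional protein, was at 22.6 ± 15.8 CPM with ZGW serum and 5.57 ± 2.19 CPM in control, Cpt2, which reloads acyl groups onto CoA inside the mitochondrion, at 3.97 ± 1.57 and 19.8 ± 10.7 CPM, and the enoyl-CoA hydratase Echs1 at 42.8 ± 24.6 and 87.8 ± 6.93 CPM (SD, n = 3). Their edgeR adjusted p-values ran from 0.409 to 0.448. Of 14 genes of glycerolipid synthesis and lipid droplets, 10 were lower with ZGW serum than in control (median -0.78) 8 were lower under high glucose than in control (median -0.10), and 7 were lower with ZGW serum than under high glucose (median -0.07). Agpat1, which acylates lysophosphatidate, was at 23.6 ± 6.36 CPM with ZGW serum, 47.1 ± 14.2 under high glucose and 53.6 ± 14.6 in control. The phosphatidate phosphatase Lpin2 was at 56.6 ± 12.8 CPM with ZGW serum, 56.6 ± 1.85 under high glucose and 26.4 ± 9.82 in control (SD, n = 3 each). For ZGW serum over control the edgeR adjusted p was 0.409 for Agpat1 and for Lpin2. It was 0.533 for Agpat1 in ZGW serum over high glucose and 0.627 for Lpin2 in high glucose over control. Of the 6 genes of NADPH supply that were tested, 4 were lower in each of the 3 comparisons. The 7 listed genes summed to 342.5 to 586.5 CPM with ZGW serum, 418 to 741 CPM under high glucose and 421.5 to 518 CPM in control. G6pdx, the highest of them in CPM, had means of 311, 461 and 321 CPM in that order of groups.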

How the data were processed

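The authors deposited a table of raw counts per gene symbol for 9 libraries. Trim Galore and mm10 appear per the submitters' processing notes. Which aligner, counting tool, annotation and strand setting were used is not given in the sources used here. Groups and replicate numbers came from the labels. The 35 genes and the other lists were chosen with earlier results of these data known.

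The counts were tested with edgeR 4.0.16 (R 4.3.3, quasi-likelihood, TMM factors, minimum count of 10 in its filter, robust). Each group had a mean from its own 3 libraries, and the spread was estimated from all 9 libraries together. Adjustment was by Benjamini-Hochberg over 16964 genes, and calls were at 0.05. An SE is the log2 fold change over the square root of its F statistic. Nothing says that libraries came from separate litters, so p-values measure the spread between pooled samples, which may be technical. Values in every library are given for genes below an unadjusted p of 0.05, the 2 of lowest p per role and comparison, and the 3 of highest level per length. Lss, Hsd17b7 and Scd2 were added to these after their values were seen. Genes outside the 35 are named below that p at a mean of at least 10 CPM, and 2 such genes are not reported here. Lengths, positions and shared stretches of 50 bases came from GENCODE M21 (GRCm38), which matched 95.9% of symbols. Alternatives were RLE factors, DESeq2 1.42.0, limma-voom (limma 3.58.1), other filters, fits of 2 groups, a replicate block, libraries left out and, chosen after seeing the data, no TMM factors. The gene tests were also run on simulated counts with known changes, and the outcome is not reported here.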

Additional observations from a re-analysis of the deposited data

How the results depend on the processing

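Counts of genes called over the whole table depended on the tool. edgeR called 0 genes in each comparison, and DESeq2 called 129 for high glucose over control, 241 for ZGW serum over high glucose and 348 for ZGW serum over control; the cause was not tested. For ZGW serum over control, 1 gene was called by limma-voom, without a filter on low counts, with the filter of 10 counts in 6 libraries, and with no scaling beyond the library total. Leaving out each library in turn gave 0 calls in each comparison. The count of the 35 genes that were lower ran from 20 to 24, 21 to 26 and 25 to 26 over those fits for high glucose over control, ZGW serum over high glucose and ZGW serum over control, and the median log2 fold change from -0.35 to -0.21, -0.45 to -0.23 and -0.61 to -0.38. With the 2 libraries that stood apart both left out, 22, 21 and 26 were lower. The direction of 1 named gene turned: Srebf2 for ZGW serum over high glucose was 0.16 by limma-voom and -0.87 by edgeR. The filter of 10 counts in 6 libraries left 31 of the 35 genes. With the replicate number as a block, 0 genes were called in each comparison and 23, 23 and 26 of the 35 were lower. Libraries of the same number correlated at -0.00656 to 0.127 in their deviations from group means, and 2 of 9 libraries correlated best with their own number in both other groups, so the numbers are not taken as pairs. Standard errors of 0.24 to 1.56 on the log2 scale limit what 3 libraries a group can show.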
